A study of Mus musculus with 10 samples.

Results

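Kinesins are motor proteins that use ATP to move along, or to take apart, microtubules. In a dividing cell the mitotic members build the spindle, align and separate the chromosomes and organise the cleavage of the cell, and most of them are made only around G2 and mitosis. In resting cells other members carry vesicles, mitochondria, messenger RNA and ciliary cargo, mostly outward from the centrosome, while cytoplasmic dynein carries cargo inward. In a lymph node the dividing cells include activated T cells and the B cells of germinal centres, the follicular sites where activated B cells multiply.

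All genes whose symbol is Kif or Kifc followed by a digit were taken, which gave 44 of the 33585 genes measured. They were 12 mitotic kinesins taken as a set by name (Kif2c, Kif4, Kif11, Kif14, Kif15, Kif18a, Kif18b, Kif20a, Kif20b, Kif22, Kif23 and Kifc1), 29 other kinesin motor genes, and 3 genes that match the symbol rule but encode no motor. The last are Kif1bp, which encodes a protein that binds kinesins, the pseudogene Kifc5c-ps and the opposite-strand transcript Kif16bos. The symbol rule uses no measured value.

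RNA was sequenced from tumor-draining lymph nodes (TDLN) of female BALB/c mice that were 6 weeks old at the start and carried 4T1 mammary tumors. Mice of both groups had the primary tumor destroyed by microwave ablation (MWA) on day 10 after inoculation and were sampled on day 15. The MWA+2DG group received 2-deoxy-D-glucose (2DG), a glucose analog that blocks glycolysis, at 500 mg/kg by intraperitoneal injection every 2 days, and the MWA group received the saline vehicle PBS on the same days. Each group held 5 libraries, 1 mouse each, and mice without ablation were not analysed here, so the comparison is of 2DG against vehicle after ablation. 4T1 is a transplantable line and the mice were of 1 inbred strain and 1 sex. The values are FPKM, fragment counts divided by transcript length and by mapped fragments, which allows levels of different genes to be compared per length.

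Summed FPKM was 312143 to 359984, highest in MWA replicate 5 and lowest in MWA+2DG replicate 3, and each library had 24289 to 25184 genes above 0. T cell and B cell markers were high in every library, with 12 T cell genes summing to 801.2 to 1420 FPKM and 10 B cell genes to 1559 to 1890 FPKM, and 8 epithelial genes summed to 2.34 to 14.8 FPKM. Replicates 3 to 5 of both groups stood apart from replicates 1 and 2: 8 liver genes summed to 24.5 to 29.8 FPKM in the 4 libraries numbered 1 and 2 and to 85.8 to 207 FPKM in the other 6. 546 genes (4.09% of the 13334 tested) differed between these sets at an adjusted p under 0.05 (limma), among them the kinesin genes Kif3a and Kif13a and no mitotic kinesin. The labels give no reason for this split, which was noticed in these data, and results are given below within each set as well. Summed adipose genes were 5.15 to 21.4 FPKM except in replicates 2 (56.7) and 5 (100.9) of MWA+2DG.

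Genes of the G2 and mitotic program often carry a cell cycle genes homology region (CHR) with the core TTTGAA close to the transcription start, through which the DREAM and MuvB complexes act, and upstream CCAAT boxes that the factor NF-Y binds. Promoter windows from RefSeq (GRCm38.p6), 250 bases before to 50 after the start, were held for 33 of the 44 genes, among them 11 mitotic kinesins and 21 other kinesins. TTTGAA on either strand was present in 10 of the 11 mitotic kinesins (90.9%), in 4 of the 21 other kinesins (19%) and in 20.2% of all 27025 genes with a window. Kif18a was the mitotic kinesin without it. Within 30 bases of the start, a limit chosen after the positions were seen, it lay in 8 of the 11 mitotic kinesins (72.7%), 2 of the 21 others (9.52%) and 3.66% of all genes. CCAAT on either strand, which can share at most 1 letter with a TTTGAA match, was present in 7 of the 11 mitotic kinesins (63.6%), 8 of the 21 others (38.1%) and 41.1% of all genes. A match describes the letters and does not show that a factor binds there.

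The 8 mitotic promoters with TTTGAA next to the start are shown here, each from 70 bases before to 28 bases after the start on the gene's own strand, with TTTGAA (reverse complement TTCAAA) and also CCAAT (reverse complement ATTGG) in capitals. Kif20b is the one with TTTGAA repeated in tandem. Kif1c, a transport kinesin with neither motif, is shown for contrast, and Kifc5b because it is a near copy of Kifc1. Kifc5b has TTTGAA too, as TTCAAA at position 30 after the start, which lies beyond the stretch shown.
Kif4 (chrX:100625995-100626092, plus strand): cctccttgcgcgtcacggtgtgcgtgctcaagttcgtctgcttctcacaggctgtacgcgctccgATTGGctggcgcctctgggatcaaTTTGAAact
Kif11 (chr19:37376312-37376409, plus strand): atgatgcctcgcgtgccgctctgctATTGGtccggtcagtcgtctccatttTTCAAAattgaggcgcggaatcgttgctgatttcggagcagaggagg
Kif15 (chr9:122951011-122951108, plus strand): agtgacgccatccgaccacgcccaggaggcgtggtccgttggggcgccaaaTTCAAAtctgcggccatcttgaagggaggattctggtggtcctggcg
Kif18b (chr11:102925097-102925194, minus strand): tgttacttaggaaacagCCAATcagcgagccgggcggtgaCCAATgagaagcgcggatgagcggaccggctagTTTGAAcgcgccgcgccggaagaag
Kif20b (chr19:34922288-34922385, plus strand): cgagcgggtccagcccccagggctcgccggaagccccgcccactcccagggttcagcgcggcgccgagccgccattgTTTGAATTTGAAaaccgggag
Kif22 (chr7:127042393-127042490, minus strand): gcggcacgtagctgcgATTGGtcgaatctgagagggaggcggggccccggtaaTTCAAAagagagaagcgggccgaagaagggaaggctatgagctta
Kif23 (chr9:61946772-61946869, minus strand): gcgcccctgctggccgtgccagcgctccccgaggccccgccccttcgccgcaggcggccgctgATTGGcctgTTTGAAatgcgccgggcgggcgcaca
Kifc1 (chr17:33890606-33890703, minus strand): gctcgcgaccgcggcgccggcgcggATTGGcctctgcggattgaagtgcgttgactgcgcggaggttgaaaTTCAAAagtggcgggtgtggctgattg
Kifc5b (chr17:26917021-26917118, plus strand): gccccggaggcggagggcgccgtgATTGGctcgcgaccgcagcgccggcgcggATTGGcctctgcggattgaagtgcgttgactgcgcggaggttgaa
Kif1c (chr11:70700478-70700575, plus strand): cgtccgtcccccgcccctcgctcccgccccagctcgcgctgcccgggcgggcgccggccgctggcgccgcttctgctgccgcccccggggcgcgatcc

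**Figure D1:**
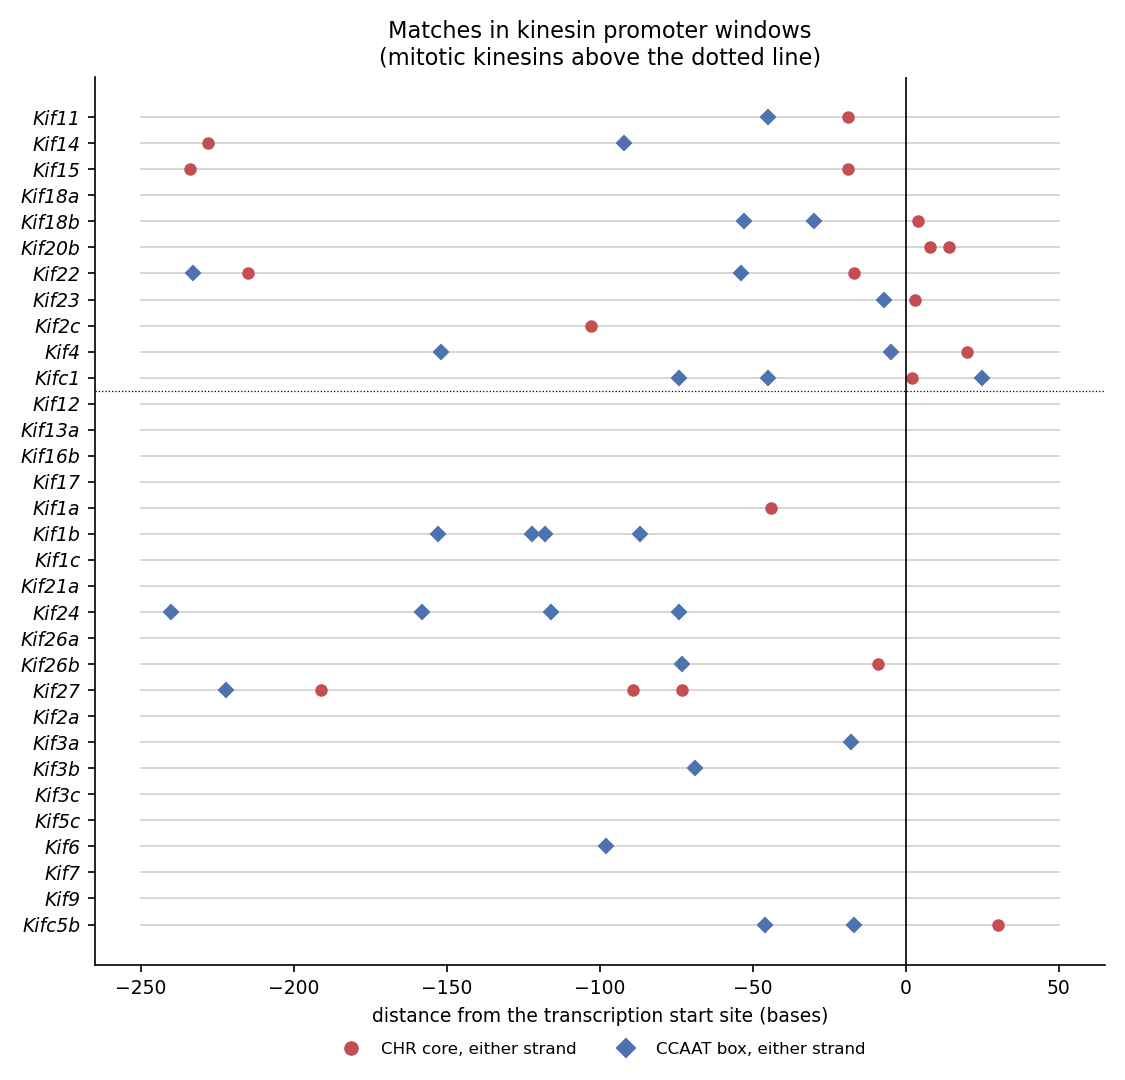
Each row is 1 kinesin gene, and the horizontal axis is the distance in bases from the transcription start. Where a gene has more than 1 promoter window, as Kif1b has, the matches of all its windows are drawn on its row. The same match may then appear more than once. Circles mark TTTGAA and diamonds mark CCAAT on either strand. The circles of 8 of the 11 mitotic kinesins, above the dotted line, lie within 30 bases of the start, against 2 of the 21 other kinesins.

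The stretches of Kifc1 and Kifc5b shared a run of 57 identical bases. It ended at the edge of the Kifc5b stretch, so the shared run may be longer. The genes are close paralogs, so reads may have been assigned to either, and their values are uncertain as separate levels.

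The first comparison asks whether 2DG after ablation went with a different level of the motors of cell division in the node. Fold changes are differences in mean log2(FPKM + 1), MWA+2DG minus MWA, from a limma fit over the 13334 genes whose mean reached 1 FPKM. All 12 mitotic kinesins passed that filter, and all 12 were lower on average in MWA+2DG, against 47.4% of all tested genes. Their median log2 fold change was -0.22 (range -0.34 to -0.06), and that of all tested genes was 0.0074. Adding 1 to each FPKM draws the fold changes of genes near 1 FPKM toward 0. Sizes thus compare poorly between scarce and abundant genes. With 0.1 added instead, the median of the 12 was -0.28 (range -0.40 to -0.10), and that of all tested genes was 0.0088. By the rule of the study's methods, a P under 0.05 with a log fold change beyond 0.25 and read here as an unadjusted P and base 2, 3 of the 12 fell (Kif2c, Kif20a and Kif4), where 249 genes, 1.87% of all tested, fell. None passed an adjusted p of 0.05, and neither did any other gene. The smallest adjusted p was 0.995, while 567 genes (4.25%) had an unadjusted limma P under 0.05 and 416 (3.12%) an unadjusted exact Wilcoxon p under 0.05, Kif2c among the latter. With a term for the replicate sets the limma fit gave an unadjusted P of 0.0131 for Kif2c, 0.0531 for Kif20a and 0.0523 for Kif4. Kif2c thus kept its call and the other two lost theirs. No kinesin separated the groups completely, as 0.802% of all genes did. In whole nodes fewer dividing cells and less RNA per cell cannot be told apart. The 12 genes are switched on together in dividing cells, so they are not 12 independent observations.

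**Figure D2:**
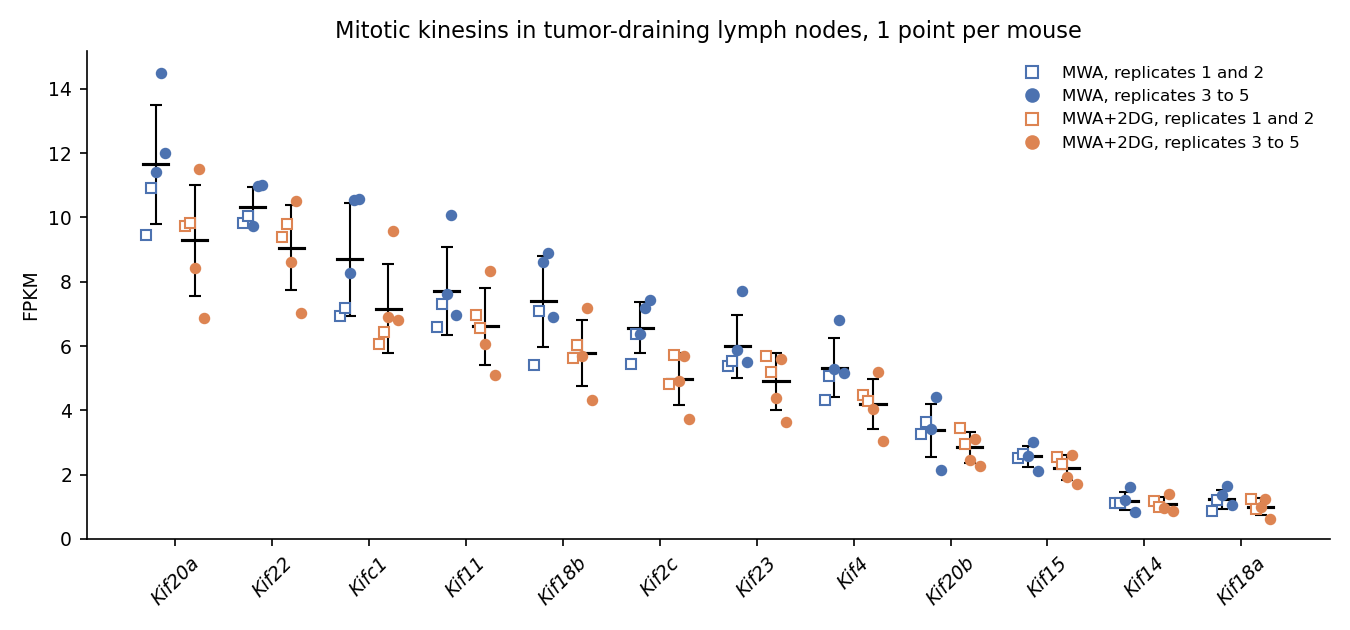
FPKM of the 12 mitotic kinesins in each mouse, ordered by mean level. Points are mice, thick bars are group means and thin bars are the SD (n = 5 per group). MWA replicate 4 is the highest of the 10 for 9 genes and MWA+2DG replicate 5 the lowest for 9 genes.

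Kif2c and Kif18b act on microtubule ends. Kif2c (MCAK) takes tubulin off the ends and corrects faulty chromosome attachments. The libraries gave 5.43, 6.38, 6.38, 7.18 and 7.44 FPKM in MWA replicates 1 to 5 and 4.81, 5.71, 4.93, 5.70 and 3.73 FPKM in MWA+2DG replicates 1 to 5. All 5 MWA+2DG mice lay under the MWA mean, 3 of them under every MWA mouse. Kif2c averaged 6.56 ± 0.793 against 4.98 ± 0.816 FPKM (log2 fold change -0.34, SE 0.11, limma P = 0.0108, exact permutation p = 0.0238). Kif18b shortens the astral microtubules together with Kif2c. Kif18b stood at 5.42, 7.09, 8.62, 8.89 and 6.92 FPKM in MWA replicates 1 to 5 and 5.64, 6.04, 5.69, 7.18 and 4.33 FPKM in MWA+2DG replicates 1 to 5. MWA replicate 1 lay within the range of the MWA+2DG mice, and the groups overlapped. For Kif18b the means (± SD) stood at 7.39 ± 1.41 against 5.78 ± 1.02 FPKM (log2 fold change -0.30, SE 0.14, limma P = 0.0523, exact permutation p = 0.103). Kif18a, which damps the swinging of chromosomes at the spindle equator, was scarce. It measured 0.872, 1.20, 1.38, 1.66 and 1.06 FPKM in MWA replicates 1 to 5 and 1.25, 0.921, 0.987, 1.25 and 0.612 FPKM in MWA+2DG replicates 1 to 5. The groups overlapped over most of their range. The means (± SD) were 1.24 ± 0.302 against 1.01 ± 0.268 FPKM (log2 fold change -0.16, SE 0.12, limma P = 0.216, exact permutation p = 0.254).

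Kif4 and Kif22 are chromokinesins, motors that ride on chromosome arms. Kif4 also brings Prc1 to the central spindle. The libraries gave 4.31, 5.08, 5.28, 6.81 and 5.17 FPKM in MWA replicates 1 to 5 and 4.47, 4.28, 4.04, 5.20 and 3.05 FPKM in MWA+2DG replicates 1 to 5. In MWA+2DG 3 mice lay under every MWA mouse, and MWA+2DG replicates 1 and 4 lay within the MWA range. Kif4 averaged 5.33 ± 0.909 against 4.21 ± 0.780 FPKM (log2 fold change -0.28, SE 0.13, limma P = 0.0471, exact permutation p = 0.0714). Kif22 pushes chromosome arms away from the poles. Kif22 stood at 9.82, 10.03, 9.74, 10.97 and 11.01 FPKM in MWA replicates 1 to 5 and 9.39, 9.78, 8.62, 10.5 and 7.04 FPKM in MWA+2DG replicates 1 to 5. The 5 MWA values were close together and 3 MWA+2DG values lay under all of them. For Kif22 the means (± SD) stood at 10.3 ± 0.625 against 9.06 ± 1.32 FPKM (log2 fold change -0.18, SE 0.10, limma P = 0.0956, exact permutation p = 0.0952).

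Kif11, Kif15 and Kifc1 set the length and shape of the spindle. Kif11 (Eg5) slides antiparallel microtubules apart so that the poles separate. It measured 6.58, 7.31, 7.61, 10.1 and 6.97 FPKM in MWA replicates 1 to 5 and 6.97, 6.56, 6.08, 8.34 and 5.11 FPKM in MWA+2DG replicates 1 to 5. The groups overlapped, with MWA+2DG replicate 4 second to MWA replicate 4 among the 10. The means (± SD) were 7.71 ± 1.38 against 6.61 ± 1.19 FPKM (log2 fold change -0.20, SE 0.13, limma P = 0.162, exact permutation p = 0.206). Kif15 can keep a spindle bipolar when Kif11 is weak. The libraries gave 2.51, 2.65, 2.58, 3.02 and 2.11 FPKM in MWA replicates 1 to 5 and 2.55, 2.33, 1.92, 2.62 and 1.70 FPKM in MWA+2DG replicates 1 to 5. The 2 lowest mice were MWA+2DG replicates 3 and 5 and the highest was MWA replicate 4. Kif15 averaged 2.57 ± 0.327 against 2.22 ± 0.400 FPKM (log2 fold change -0.15, SE 0.10, limma P = 0.158, exact permutation p = 0.175). Kifc1 (HSET) moves toward the minus end and draws poles and extra centrosomes together. Kifc1 stood at 6.93, 7.19, 8.28, 10.5 and 10.6 FPKM in MWA replicates 1 to 5 and 6.07, 6.45, 6.90, 9.57 and 6.82 FPKM in MWA+2DG replicates 1 to 5. MWA+2DG replicate 4 stood among MWA replicates 3 to 5, and the other 4 MWA+2DG mice were under every MWA mouse. For Kifc1 the means (± SD) stood at 8.70 ± 1.76 against 7.16 ± 1.39 FPKM (log2 fold change -0.25, SE 0.14, limma P = 0.114, exact permutation p = 0.143). For none of these 3 genes did the difference pass the study's rule.

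Kif20a, Kif23, Kif14 and Kif20b work at the central spindle and in cytokinesis. Kif20a (MKLP2) carries the Aurora B complex to the central spindle, and per length it was the most abundant of the 12. It measured 9.45, 10.9, 11.4, 14.5 and 11.99 FPKM in MWA replicates 1 to 5 and 9.74, 9.84, 8.44, 11.5 and 6.88 FPKM in MWA+2DG replicates 1 to 5. All 5 MWA+2DG mice were under the MWA mean of 11.7 FPKM. The means (± SD) were 11.7 ± 1.85 against 9.29 ± 1.73 FPKM (log2 fold change -0.30, SE 0.14, limma P = 0.0471, exact permutation p = 0.0873). Kif23 (MKLP1) forms the centralspindlin complex with Racgap1. The libraries gave 5.37, 5.55, 5.87, 7.72 and 5.49 FPKM in MWA replicates 1 to 5 and 5.68, 5.19, 4.38, 5.61 and 3.63 FPKM in MWA+2DG replicates 1 to 5. MWA replicate 4 stood above the other 9 mice. Kif23 averaged 5.999 ± 0.980 against 4.90 ± 0.877 FPKM (log2 fold change -0.25, SE 0.12, limma P = 0.0692, exact permutation p = 0.103). Kif14 recruits citron kinase to the midbody. Kif14 stood at 1.12, 1.12, 1.21, 1.61 and 0.826 FPKM in MWA replicates 1 to 5 and 1.19, 0.992, 0.971, 1.40 and 0.858 FPKM in MWA+2DG replicates 1 to 5. The MWA range held that of MWA+2DG within it. For Kif14 the means (± SD) stood at 1.18 ± 0.281 against 1.08 ± 0.214 FPKM (log2 fold change -0.06, SE 0.10, limma P = 0.57, exact permutation p = 0.595). Kif20b acts late, in abscission. It measured 3.27, 3.65, 3.41, 4.42 and 2.15 FPKM in MWA replicates 1 to 5 and 3.46, 2.94, 2.45, 3.11 and 2.27 FPKM in MWA+2DG replicates 1 to 5. Its lowest value was in the MWA group. The means (± SD) were 3.38 ± 0.818 against 2.85 ± 0.485 FPKM (log2 fold change -0.17, SE 0.14, limma P = 0.24, exact permutation p = 0.278).

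**Figure D3:**
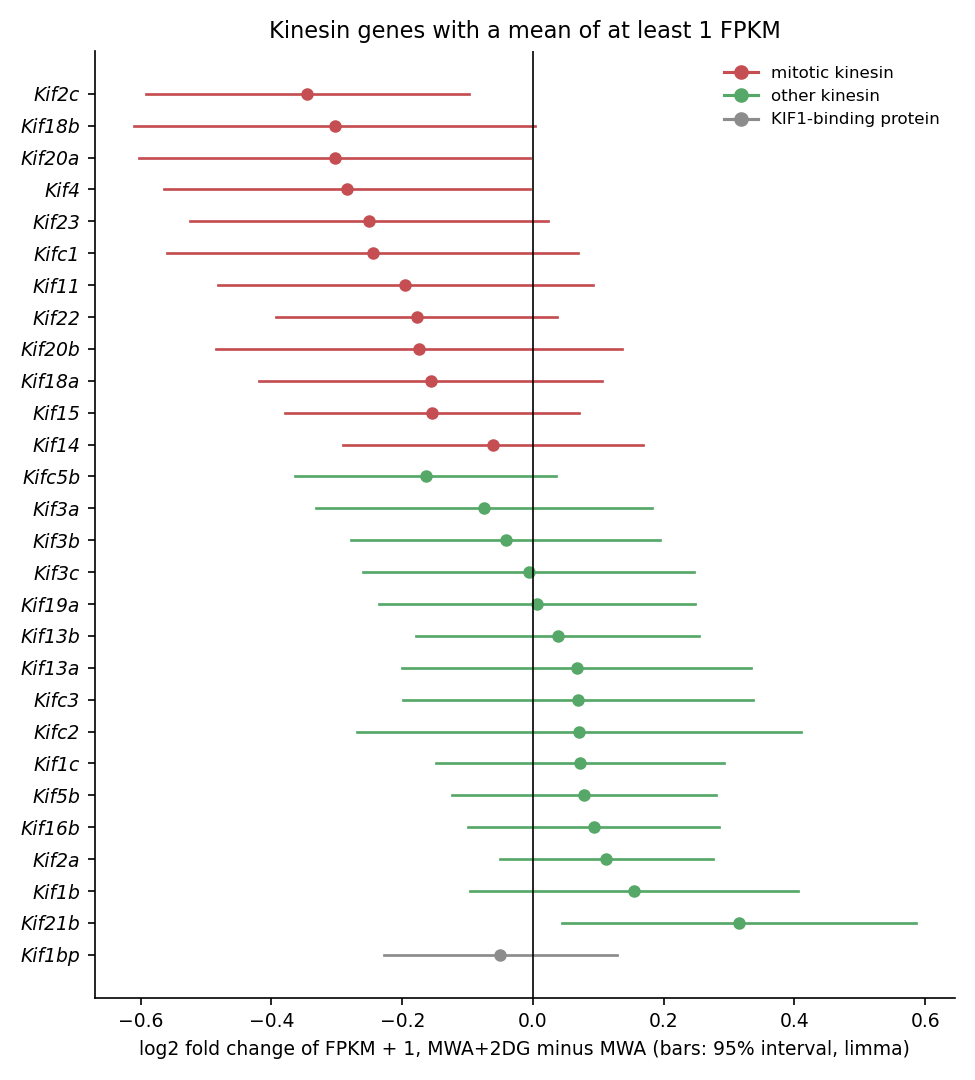
Log2 fold change (MWA+2DG minus MWA, from log2(FPKM + 1)) of the 28 kinesin-named genes whose mean reached 1 FPKM. Points are the differences and bars are 95% intervals from limma. All 12 mitotic kinesins lie left of 0, and of the others only Kif21b has an interval that leaves 0 out.

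The size of the difference varied between libraries. MWA replicate 4 was the highest of the 10 for 9 mitotic kinesins and MWA replicate 5 for the other 3, while MWA+2DG replicate 5 was the lowest for 9. That mouse also had the highest summed adipose genes (100.9 FPKM) and epithelial genes (14.8 FPKM) of the 10. All 5 tested adipose genes were above 0 (7011 of all 13334 tested genes) and none was called (median log2 fold change 0.77). The part of such tissue in the kinesin result was not tested. Summed over the 12 genes, the level was 61.1, 68.2, 71.8, 87.4 and 71.7 FPKM in MWA replicates 1 to 5. It was 61.2, 61.0, 55.4, 72.0 and 46.0 FPKM in MWA+2DG replicates 1 to 5. MWA replicate 1 thus matched the first 2 MWA+2DG mice, and MWA+2DG replicate 4 matched MWA replicates 3 and 5. The median log2 fold change of the 12 was -0.16 without MWA replicate 4 and became -0.14 with MWA+2DG replicate 5 left out. The call of Kif20a was lost under 8 of the 10 omissions of 1 library and that of Kif4 likewise, and Kif2c kept its call under all 10. The count of mitotic kinesins called was then 1 without MWA replicate 2, 3 or 4 or without MWA+2DG replicate 2, 3 or 5, and 5 without MWA+2DG replicate 4. With each library rescaled to the same total, 159 genes were lower and 328 higher by the study's rule, in place of 249 and 127. Of the mitotic kinesins 1 was then called, with a median of -0.20 for the 12. The median of all tested genes moved from 0.0074 to 0.068.

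Within replicates 1 and 2 of both groups the log2 fold changes of the mitotic kinesins were near 0, and within replicates 3 to 5 most were further below it. In these 4 libraries of replicates 1 and 2 the median log2 fold change was -0.05, with 11 of 12 below 0 (48.7% of all genes) and none under -0.25 (5.41% of all genes). In replicates 3 to 5 it was -0.31, with 12 of 12 below 0 (47.4% of all genes) and 9 under -0.25 (7.87% of all genes). Kif20a had a log2 fold change of -0.05 in the first set and -0.47 in the second, and Kif2c had -0.14 and -0.48. The difference between the sets did not pass the test for any mitotic kinesin: the smallest interaction P was 0.124 for Kif23 (limma), and over all genes 341 (2.56%) had an unadjusted interaction P under 0.05 and 0 an adjusted one. Why the sets differ was not tested.

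Germinal centre B cell markers were lower in MWA+2DG too. The marker lists were chosen with earlier results of these data known. Of 9 listed markers 8 were tested, and all 8 were lower in MWA+2DG (47.4% of all genes). Their median log2 fold change was -0.54, and 6 fell by the study's rule (1.87% of all genes). The sum of the 9 was 138.0, 189, 199, 236.5 and 184 FPKM in MWA replicates 1 to 5 and 130.3, 144, 145, 149 and 91.8 FPKM in MWA+2DG replicates 1 to 5. Rgs13, a regulator of G protein signalling found in these cells, ranged from 16.9 to 27.9 FPKM in MWA and from 9.21 to 18.0 FPKM in MWA+2DG (log2 fold change -0.63, limma P = 0.00478, exact permutation p = 0.0238). None of the 9 was at 0 in every library, and Gcnt3 was under 1 FPKM throughout. MWA replicate 4 had the highest and MWA+2DG replicate 5 the lowest sum of both the markers and the mitotic kinesins. The part of these cells in the kinesin result was not tested. Of 9 plasma cell markers tested 8 were below 0 (47.4% of all genes) and 2 fell (1.87% of all genes), with a median log2 fold change of -0.36. The sum of all 10 was 739 to 4069 FPKM in MWA and 594 to 2044 FPKM in MWA+2DG. The plasma cell direction turned between the replicate sets. In replicates 1 and 2, 7 of 9 were above 0 (median 0.13), as were 6823 of all 13334 tested genes. In replicates 3 to 5, 9 of 9 were below 0 (median -0.70), as were 6316 of all 13334 tested genes. All 10 B cell markers were below 0 (47.4% of all genes) and none was called (median -0.09), with sums of 1686 to 1890 and 1559 to 1808 FPKM. All 12 T cell markers were above 0 (7011 of all 13334 tested genes) and none was called (median 0.15), with sums of 801.2 to 1420 and 867.9 to 1337 FPKM.

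**Figure D4:**
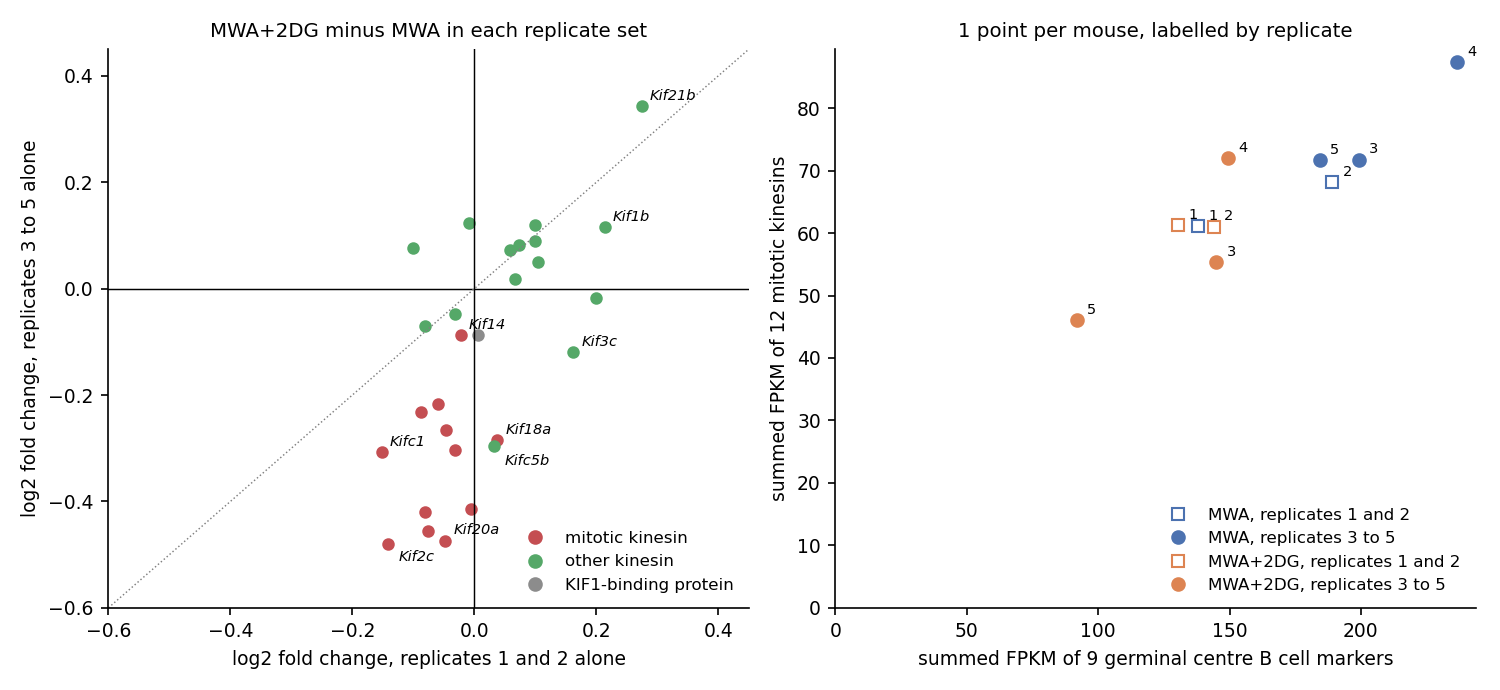
Left, log2 fold change of each tested kinesin-named gene in replicates 1 and 2 (horizontal) and in replicates 3 to 5 (vertical). The dotted line marks equal values, and 9 mitotic kinesins lie under -0.25 on the vertical axis against none on the horizontal one. Right, summed FPKM of the 12 mitotic kinesins against that of 9 germinal centre B cell markers, 1 point per mouse with its replicate number.

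Transcripts of the proteins that the mitotic kinesins work with, or that regulate them, differed in the same direction. The list of these partners was chosen with earlier results of these data known. Of 21 spindle and cleavage partners 20 were below 0 (47.4% of all genes) and 9 fell by the study's rule (1.87% of all genes). Their median log2 fold change was -0.27. That median was -0.10 in replicates 1 and 2 and -0.40 in replicates 3 to 5. Cdk1, the kinase that drives entry into mitosis, had 9.14 ± 0.712 FPKM in MWA and 6.79 ± 0.847 FPKM in MWA+2DG (log2 fold change -0.38, limma P = 0.00131, exact permutation p = 0.00794) and its groups did not overlap, as was so for 0.51% of all genes in this direction. Ccnb2, a cyclin partner of Cdk1, had 29.6 ± 3.25 FPKM in MWA and 21.9 ± 4.42 FPKM in MWA+2DG (log2 fold change -0.44, limma P = 0.00971, exact permutation p = 0.0159). Cdca8, the borealin subunit of the Aurora B complex that Kif20a carries, had 10.3 ± 1.25 FPKM in MWA and 7.75 ± 1.48 FPKM in MWA+2DG (log2 fold change -0.38, limma P = 0.0118, exact permutation p = 0.0159). The other 6 that fell were Birc5, Aurka, Tpx2, Hmmr, Ccnb1 and Prc1. The count of 9 became 5 and 4 when MWA replicate 3 or 4 was left out, 5 and 3 when replicate 3 or 5 of MWA+2DG was, and 14 without MWA+2DG replicate 4. The centralspindlin subunit Racgap1, its binding partner Ect2 and citron kinase (Cit) did not pass, with log2 fold changes of -0.16 for Racgap1, -0.15 for Ect2 and -0.08 for Cit. Numa1, which tethers spindle poles, was the 1 partner above 0, at a log2 fold change of 0.16. In replicates 1 and 2 alone 5.41% of all genes had a log2 fold change under -0.25. Of the germinal centre markers 4 of 8 did, of the spindle partners 4 of 21 and of the mitotic kinesins 0 of 12. The lists differ in level, and the 1 added to each FPKM shrinks the changes of scarce genes.

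Set against Mki67, a marker of cycling cells, the mitotic kinesins had no common direction. The difference in log2(FPKM + 1) of each kinesin minus that of Mki67 in the same mouse had a median of 0.05 over the 12 genes, with 4 below 0 and 8 above. The values ran from -0.08 for Kif2c (two-sided exact permutation p = 0.794) to 0.21 for Kif14 (two-sided exact permutation p = 0.111). The 1 added to each FPKM shrinks the changes of scarce genes such as Kif14 and Kif18a. The comparison with the more abundant Mki67 is thus uneven. Mki67 itself had 33.1 ± 9.06 FPKM in MWA and 26.9 ± 5.20 FPKM in MWA+2DG (log2 fold change -0.27, limma P = 0.184, exact permutation p = 0.238).

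The second comparison covers the members outside the mitotic set. They include the kinesins of transport and of resting cells, but also Kifc5b, the near copy of Kifc1, and Kif1bp, which encodes no motor. Of the 32 genes outside the mitotic set 16 passed the filter, 15 kinesins and Kif1bp, with a median log2 fold change of 0.07 and 5 of 16 below 0 (47.4% of all genes). With each library rescaled to the same total the median was 0.14, with 2 of 16 below 0. For all tested genes the median was then 0.068, with 4009 of 13334 below 0. Kif21b rose by the study's rule, 1 of 16, where 127 genes (0.952%) rose, and none fell.

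Kif21b, a kinesin of family 4 that pauses microtubule growth and, in T cells, takes part in moving the centrosome to the contact with a target cell, was the most abundant kinesin in these nodes per length. The libraries gave 21.4, 20.9, 24.6, 20.7 and 15.4 FPKM in MWA replicates 1 to 5 and 28.7, 23.2, 27.4, 27.7 and 21.8 FPKM in MWA+2DG replicates 1 to 5. MWA replicate 5 was the lowest of the 10. Replicates 1, 3 and 4 of MWA+2DG exceeded all 5 MWA values, and the other 2 lay within the MWA range. Kif21b averaged 20.6 ± 3.31 against 25.8 ± 3.03 FPKM (log2 fold change 0.32, SE 0.12, limma P = 0.0263, exact permutation p = 0.0476). The log2 fold change was 0.27 in replicates 1 and 2 and 0.34 in replicates 3 to 5. The limma fit gave an interaction P of 0.806 for Kif21b. Without MWA replicate 5 it was 0.22, and the call was lost, as it was without MWA+2DG replicate 1, 3 or 4. T cell markers were also above 0, as given above, and their part in Kif21b was not tested.

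**Figure D5:**
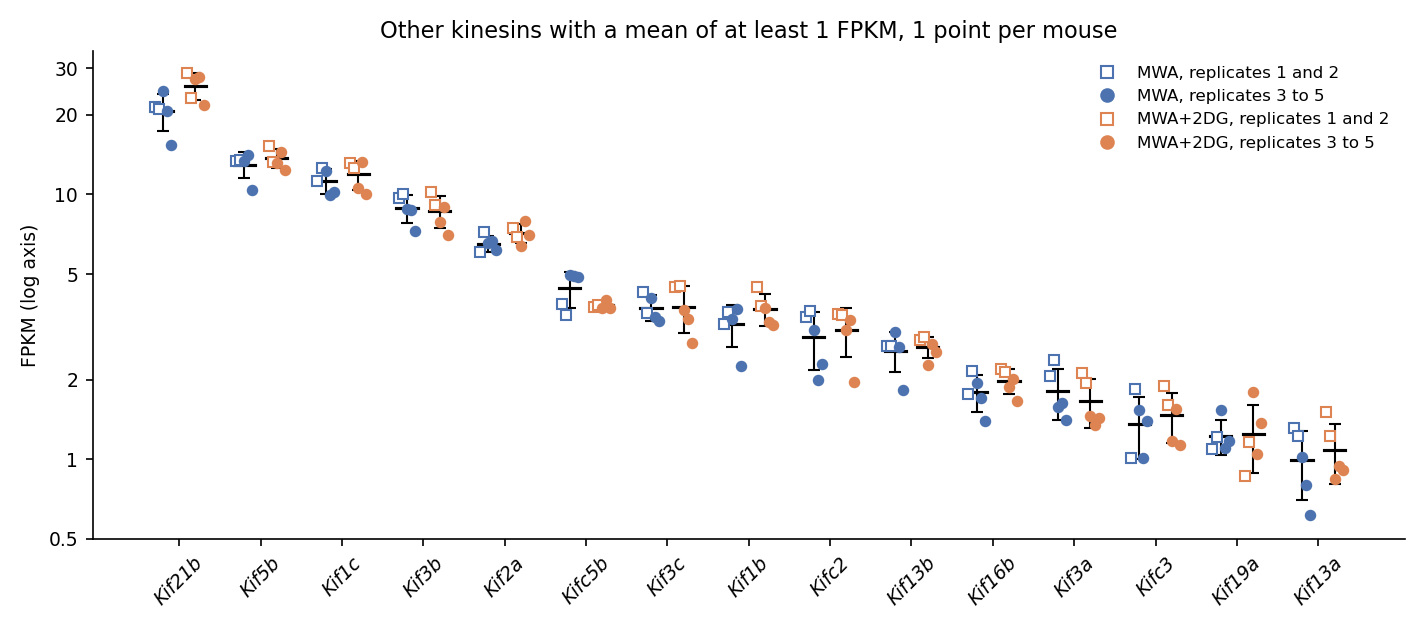
FPKM of the 15 other kinesins whose mean reached 1 FPKM, in each mouse, on a log axis, ordered by mean level. Points are mice, thick bars are group means and thin bars are the SD (n = 5 per group). Kif21b is the highest, and MWA replicate 5 is the lowest of the 10 for 6 of the 15.

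None of the 3 cargo motors of highest level after Kif21b passed the test. Kif5b, the broadly expressed heavy chain of conventional kinesin, moves mitochondria, lysosomes and vesicles. Kif5b stood at 13.4, 13.5, 13.4, 14.1 and 10.4 FPKM in MWA replicates 1 to 5 and 15.2, 13.3, 13.2, 14.5 and 12.3 FPKM in MWA+2DG replicates 1 to 5. MWA replicate 5 was low and the other 9 mice overlapped. For Kif5b the means (± SD) stood at 12.9 ± 1.46 against 13.7 ± 1.15 FPKM (log2 fold change 0.08, SE 0.09, limma P = 0.413, exact permutation p = 0.492). Kif1c, a motor of dense-core vesicles and integrins, followed. It measured 11.2, 12.5, 12.3, 9.96 and 10.2 FPKM in MWA replicates 1 to 5 and 13.1, 12.5, 10.6, 13.2 and 10.01 FPKM in MWA+2DG replicates 1 to 5. High and low mice were found in both groups. The means (± SD) were 11.2 ± 1.17 against 11.9 ± 1.51 FPKM (log2 fold change 0.07, SE 0.10, limma P = 0.487, exact permutation p = 0.452). Kif3b, a subunit of the heterotrimeric kinesin of cilia and vesicles, came next. The libraries gave 9.68, 10.1, 8.80, 8.71 and 7.28 FPKM in MWA replicates 1 to 5 and 10.2, 9.11, 7.90, 8.94 and 7.05 FPKM in MWA+2DG replicates 1 to 5. Replicate 5 was the lowest of each group. Kif3b averaged 8.91 ± 1.08 against 8.64 ± 1.20 FPKM (log2 fold change -0.04, SE 0.11, limma P = 0.703, exact permutation p = 0.738).

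Kif2a takes apart microtubule ends as Kif2c does, but is made outside mitosis too. Kif2a stood at 6.07, 7.24, 6.53, 6.64 and 6.14 FPKM in MWA replicates 1 to 5 and 7.49, 6.88, 6.38, 7.93 and 7.01 FPKM in MWA+2DG replicates 1 to 5. Both groups overlapped, with a difference opposite in sign to that of Kif2c. For Kif2a the means (± SD) stood at 6.53 ± 0.468 against 7.14 ± 0.591 FPKM (log2 fold change 0.11, SE 0.07, limma P = 0.158, exact permutation p = 0.111). Kifc5b, the near copy of Kifc1, was the 1 tested gene outside the mitotic set with a log2 fold change under -0.1. It measured 3.86, 3.51, 4.96, 4.91 and 4.89 FPKM in MWA replicates 1 to 5 and 3.77, 3.81, 3.73, 4.01 and 3.73 FPKM in MWA+2DG replicates 1 to 5. MWA replicates 3 to 5 stood above the other 7 mice. The means (± SD) were 4.43 ± 0.688 against 3.81 ± 0.114 FPKM (log2 fold change -0.16, SE 0.09, limma P = 0.097, exact permutation p = 0.135). Its log2 fold change was 0.03 in replicates 1 and 2 and -0.30 in replicates 3 to 5, with an unadjusted interaction P of 0.023 (limma), 1 of the 341 genes counted above. Reads of Kifc1 may have been assigned here, which was not tested.

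The other 9 kinesins that passed had group means of 0.994 to 3.75 FPKM and log2 fold changes of -0.07 to 0.15, with unadjusted limma P of 0.201 or more. They were Kif3a, which pairs with either Kif3b or Kif3c, Kif3c itself, the vesicle and mitochondrial motor Kif1b, the endosome motors Kif13a, Kif13b and Kif16b, the minus-end motors Kifc2 and Kifc3, and Kif19a, which shortens cilia. Kif1b had the largest of these differences, at 0.15 (SE 0.11). Kif3a and Kif13a were the ones that differed between the replicate sets. Kif13a was 1.22 to 1.51 FPKM in the 4 libraries numbered 1 and 2 and 0.614 to 1.02 FPKM in the other 6, and Kif3a was 1.94 to 2.36 and 1.35 to 1.63 FPKM. Kif1bp was 5.87 ± 0.204 FPKM (SD, n = 5) in MWA and 5.66 ± 0.695 in MWA+2DG.

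The genes listed as transport partners, among them adaptors that load these motors with cargo, did not pass the study's rule in either direction. Of 18 transport partners measured 17 were tested, 4 were below 0 (47.4% of all genes) and the median log2 fold change was 0.06. The smallest limma P values belonged to Madd, an adaptor of Kif1b, with 13.1 ± 1.65 FPKM in MWA and 15.3 ± 1.14 FPKM in MWA+2DG (log2 fold change 0.21, limma P = 0.0423, exact permutation p = 0.0397), to Mapk8ip3, a scaffold between conventional kinesin and its cargo, with 11.8 ± 1.73 FPKM in MWA and 13.2 ± 0.583 FPKM in MWA+2DG (log2 fold change 0.15, limma P = 0.142, exact permutation p = 0.135), and to Dennd1a, an exchange factor of Rab35, with 1.67 ± 0.136 FPKM in MWA and 1.899 ± 0.308 FPKM in MWA+2DG (log2 fold change 0.11, limma P = 0.19, exact permutation p = 0.143). Madd did not reach the fold threshold. Kinesin light chains Klc1, Klc2 and Klc4, which join Kif5b to cargo, had log2 fold changes of 0.03, 0.06 and 0.06, and Kifap3, the third subunit beside Kif3a and Kif3b, had -0.13. Cytoplasmic dynein and dynactin, the motor of the opposite direction, had 8 of 19 tested genes below 0 (47.4% of all genes). Their median log2 fold change was 0.0018 and none was called. Dynlt3, a dynein light chain, had the smallest limma P, with 20.5 ± 2.40 FPKM in MWA and 17.8 ± 1.45 FPKM in MWA+2DG (log2 fold change -0.19, limma P = 0.0641, exact permutation p = 0.0794). Next came Dync1h1, the dynein heavy chain, with 22.7 ± 4.53 FPKM in MWA and 26.6 ± 3.27 FPKM in MWA+2DG (log2 fold change 0.23, limma P = 0.133, exact permutation p = 0.143). The cargo adaptor Bicd2 was the third, with 9.37 ± 1.14 FPKM in MWA and 10.3 ± 0.871 FPKM in MWA+2DG (log2 fold change 0.13, limma P = 0.206, exact permutation p = 0.206). Dync1li1, a light intermediate chain named after its values were seen, had the smallest exact permutation p of the list and was the 1 with an exact Wilcoxon p under 0.05. It ranged from 10.8 to 11.2 FPKM in MWA and from 10.03 to 10.9 FPKM in MWA+2DG (log2 fold change -0.07, limma P = 0.234, exact permutation p = 0.0238).

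The remaining 16 genes had a mean under 1 FPKM and were not tested. Kif21a, the near relative of Kif21b, lay just under the filter at a mean of 0.990 FPKM, and Kif13a just above it at 1.04 FPKM. Kif24, a centriole kinesin, and Kif9 averaged 0.730 and 0.784 FPKM, and Kif7, a part of the Hedgehog pathway at the ciliary tip, averaged 0.591 FPKM. Kif7 was 0.242 to 0.714 FPKM in MWA and 0.476 to 0.930 FPKM in MWA+2DG, and Kif24 was 0.564 to 1.16 and 0.491 to 0.806 FPKM. The conventional kinesins of neurons, Kif5c and Kif5a, averaged 0.414 and 0.310 FPKM, Kif26a 0.541 FPKM, and the axonal motor Kif1a 0.116 FPKM. Kif26b, Kif12, Kif17, Kif27, Kif6 and Kif28 averaged 0.00651 to 0.0749 FPKM. Kif12 was listed at 0 in the 4 libraries of replicates 1 and 2 and at 0.0155 to 0.170 FPKM in the other 6. The pseudogene Kifc5c-ps and the transcript Kif16bos averaged 0.0212 and 0.0544 FPKM, and each was listed at 0 in 6 of the 10 libraries. Markers of nerve (sum 12.5 to 17.7 FPKM, 6 of 10 genes under 1 FPKM in every library) and of motile cilia (sum 1.35 to 3.07 FPKM, 6 of 7 genes under 1 FPKM) were low as well.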

How the data were processed

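RNA was measured in 10 TDLN libraries, 5 MWA and 5 MWA+2DG, mapped to groups by their labels. The authors purified poly(A) RNA, made strand-marked libraries with molecular identifiers and, by their methods, used fastp, HISAT2, StringTie and ballgown. The submitters' processing notes list cutadapt 1.9, HISAT2 2.0.4, UMI-tools, StringTie 1.3.4d and build mm9, and whether molecular identifiers were counted was not given in the sources used. The deposited values are FPKM per gene, 1 table per mouse, already divided by length and mapped reads, so depth is unknown and no counting error could be given. The lowest nonzero value was 1e-06 and low values showed no common step, so whole reads could not be recovered.

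Of 33643 identifiers 33541 matched a symbol, and summing over the 57 symbols that had more than 1 identifier gave 33585 genes. No pair of libraries shared more than 0.000178 of its nonzero values, so each counted as 1 sample. The 13334 genes whose mean reached 1 FPKM were fitted on log2(FPKM + 1) by limma 3.58.1 in R 4.3.3 with no covariate. Pseudocount and filter were chosen here. The study's rule (P under 0.05, log fold change beyond 0.25, read here as unadjusted and base 2) and Benjamini-Hochberg adjusted p under 0.05 were both applied. Single genes also had a two-sided exact permutation test over all 252 regroupings of the mice, whose smallest possible p is 0.00794. On simulated data the fit recovered 174 of 200 genes changed by 1 on the log2 scale among 13334, with 10 unchanged genes called. Changes as small as those of the kinesins were not simulated, so the recovery at such sizes is not known.

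The members, the lists of partner and marker genes and the split into replicates 1 to 2 and 3 to 5 were chosen with earlier results of these data known. Values in every library were given for the 12 mitotic kinesins, for the 6 other kinesins of highest mean and for any with an unadjusted P under 0.05. The 3 partners of smallest limma P were named per list, and other genes named were chosen after their values were seen. Lists were described by counts and medians, with no test, and 1 marker gene is not reported here. Alternatives were another pseudocount, filter, scaling, variance trend, replicate block, set term, Wilcoxon test, Mki67 as reference and each library left out. Promoter sequences and positions are RefSeq's, on GRCm38.p6, matched by symbol. No expression value was placed on that build.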

Additional observations from a re-analysis of the deposited data

Results flagged for a closer look

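For each of the 28 tested genes the 5 FPKM values of either group were checked for a mouse far from the other 4, by the gap to its nearest neighbour over the whole range of the group (critical value 0.71 for 5 mice). Of 56 groups 6 had such a mouse, and chance alone gives about 1 in 20. Among the mitotic kinesins, MWA replicate 4 had 7.72 FPKM of Kif23 where the other 4 MWA mice had 5.37 to 5.87. MWA+2DG replicate 4 had 9.57 FPKM of Kifc1 where the other 4 of its group had 6.07 to 6.90. The same mouse had 4.01 FPKM of Kifc5b, the near copy of Kifc1, against 3.73 to 3.81 in the others. Among the other kinesins, Kif5b was 10.4 FPKM in MWA replicate 5 against 13.4 to 14.1 in the rest of the MWA group. Kifc2 was 1.95 FPKM in MWA+2DG replicate 5 against 3.07 to 3.52. Kif19a was 1.53 FPKM in MWA replicate 3 against 1.09 to 1.21. What sets these mice apart was not tested.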

How the results depend on the processing

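The median log2 fold change of the mitotic kinesins stayed below 0 under every alternative except Mki67 as the reference, where it was 0.0475. The 3 mitotic kinesins lower by the study's rule became 5 with median ratio scaling, 5 with quantile normalization, 1 with no filter, 1 with a term for the replicate sets (Kif2c), 1 with libraries rescaled to 1000000, 0 in replicates 1 and 2 alone, and 1 to 5 with 1 library left out. The 1 other kinesin called higher (Kif21b) was called in neither replicate set alone (0 and 0) and in 6 of the 10 omissions (0 to 1), and 1 other gene was called lower in replicates 3 to 5 alone (Kifc5b). The 9 spindle partners became 4 when rescaled, 3 in replicates 1 and 2 alone and 3 to 14 with 1 library left out. Over all genes the 249 lower calls became 161 with a filter of 5 FPKM, 159 when rescaled and 386 in replicates 3 to 5 alone, and the 127 higher calls became 69 with that filter, 328 when rescaled, 371 in replicates 1 and 2 alone and 80 to 222 with 1 library left out. Among the mitotic kinesins and the other kinesins given library by library, single genes changed sign as follows. Kif14 was 0.0067 without MWA replicate 4 (-0.12 to 0.0067 over the 10 omissions). Kif3b was 0.016 when rescaled and 0.021 without MWA+2DG replicate 5 (-0.11 to 0.021). In replicates 1 and 2 alone Kif18a was 0.037 and Kifc5b was 0.033. For the remaining tested genes of the family, changes of sign were looked for only within the replicate sets. Kif3c (0.16), Kif19a (-0.10), Kifc2 (-0.0089) and Kif1bp (0.0060) changed sign in replicates 1 and 2 alone. Kifc3 (-0.018) did so in replicates 3 to 5 alone. Apart from fewer genes or mice where a filter or an omission removes them, the cause was not tested.

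With the replicate number as a replicate block, 5 mitotic kinesins were lower (Kif18b and Kif23 were added), and over all genes 285 were lower and 164 higher. The labels tie the numbers to no litter, batch or day, and the numbers were not treated as pairs: same-numbered mice correlated by 0.331, 0.501, 0.110, 0.033 and 0.151 in their deviations from the group means, so 4 of 5 were over 0.1, and 1 of 5 numbers correlated best with itself. Splits by replicate set were chosen after seeing the data. Depth is unknown, so how far it limits the low genes cannot be given.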
